A study of Mus musculus with 18 samples.

Results

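The genes described here are 41 mouse genes of the response to low oxygen and of glycolysis, listed by symbol, and all 41 were found among the 20878 genes of the expression matrix. They are grouped here by role into oxygen sensing and its regulators (6 genes), glucose uptake and glycolysis (14), pyruvate and lactate handling (4), carbonic anhydrases (2), secreted factors (3), mitochondria and mitophagy (4), stress-induced genes (3), and collagen maturation and endoplasmic reticulum oxidation (5). RNA had been measured in 18 tumors grown from K7M2, a poorly differentiated mouse osteosarcoma line that is syngeneic to Balb/c. The cells carried either a control shRNA (ATRXCT) or an shRNA against Atrx (ATRXKD), delivered by lentivirus, and were injected into immunocompetent Balb/c mice or into NSG mice, which carry the Prkdc scid and Il2rg null alleles and lack T, B and NK cells. The 4 groups were Balb/c with control shRNA (mice 41, 43, 44 and 45), Balb/c with Atrx shRNA (mice 56, 58, 59 and 60), NSG with control shRNA (mice 1 to 5) and NSG with Atrx shRNA (mice 26 to 30). Hosts were 6 to 8 weeks old and female by the study's methods. Each tumor came from its own mouse, but the cells came from 1 line per shRNA, so an effect of losing Atrx and any other effect of that transduced line cannot be told apart.

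Cells meet low oxygen through the hypoxia-inducible factors. The alpha subunits Hif1a and Epas1 are hydroxylated by the Egln enzymes when oxygen is present and are then degraded. When oxygen falls they persist, pair with Arnt and bind short motifs near genes for glucose import, glycolysis, lactate export, acid handling, blood vessel growth, mitophagy and collagen maturation. The control of the alpha subunits acts mainly on the protein, so their transcript levels do not report their activity. Many of the same genes are expressed at a high level in tumor cells that rely on glycolysis. In a bulk tumor, fewer cells of a type and less RNA per cell cannot be told apart.

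Values are FPKM (fragments counted relative to transcript length and to all mapped fragments of the library), and differences were tested with limma on log2(FPKM + 1), a scale that understates changes of low genes. A gene was called at a Benjamini-Hochberg adjusted p below 0.05, over all genes averaging 0.1 FPKM or more, together with a fold of at least 2. The libraries had an estimated 15150000 to 25200000 fragments. Atrx itself lay between 10.3 and 26.0 FPKM in Balb/c control tumors and between 7.88 and 21.5 FPKM in Balb/c ATRXKD tumors, and between 11.6 and 24.4 FPKM in NSG control tumors and between 8.42 and 16.4 FPKM in NSG ATRXKD tumors. Its difference was −0.34 on the log2 scale in Balb/c (limma, adjusted p = 0.999) and −0.74 in NSG (adjusted p = 0.061). 6 libraries, from Balb/c control mice 43 and 45, Balb/c ATRXKD mice 56 and 60, NSG control mouse 3 and NSG ATRXKD mouse 27, stood apart in that the level rose with transcript length, by 0.10 to 0.21 log2 units per doubling of length against −0.15 to 0.00095 in the other 12. Within the other 12 libraries Atrx was lower in every ATRXKD tumor than in any control tumor of the same host (7.88 and 9.11 against 10.3 and 13.4 FPKM in Balb/c, 8.42 to 8.88 against 11.6 to 20.5 FPKM in NSG). The summed level of 4 Y-linked genes was between 13.1 and 34.3 FPKM in the NSG tumors and at most 0.0115 FPKM in the Balb/c tumors, so the NSG libraries go against the sex given for the hosts, and host strain, immune status and sex cannot be told apart in the host comparisons. Of 8 osteoblast markers, Ibsp was at 0 in both ATRXKD groups and below 0.1 FPKM in both control groups, and Sp7 was below 0.1 FPKM in every group but Balb/c ATRXKD, while the 8 markers together summed to between 610 and 1383 FPKM.

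The members spanned a wide range of levels. Aldoa, the aldolase that splits fructose bisphosphate, had the highest mean over the 18 tumors (751 FPKM), followed by Ldha (691 FPKM), which turns pyruvate into lactate, and by Pkm (591 FPKM), the last kinase of glycolysis. Next came Tpi1 (448 FPKM), Eno1 (322 FPKM) and Pgk1 (274 FPKM), all enzymes of glycolysis. Car12, a membrane carbonic anhydrase (1.11 FPKM), and Ak4, a mitochondrial adenylate kinase (1.51 FPKM), had the lowest means. Every member was above 0 in every tumor. The lowest single value was 0.448 FPKM, for Car12 in an NSG control tumor. By estimate Car12 rested on roughly 29 fragments or more in each tumor, and every other member on more than 100.

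Car9, the membrane carbonic anhydrase that buffers acid outside hypoxic cells, varied most among the members, with its highest value 10.4 times its lowest (8.53 to 88.6 FPKM). P4ha2, a subunit of collagen prolyl hydroxylase, followed with a ratio of 6.08 (2.74 to 16.7 FPKM), then Car12 with 5.58, Epas1 with 4.47, the mitochondrial protein Higd1a with 4.41 and the mitophagy receptor Bnip3 with 4.28. The steadiest were Hif1a (58.5 to 91.3 FPKM, a ratio of 1.56) and Pkm (477 to 747 FPKM, 1.57).

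**Figure D1:**
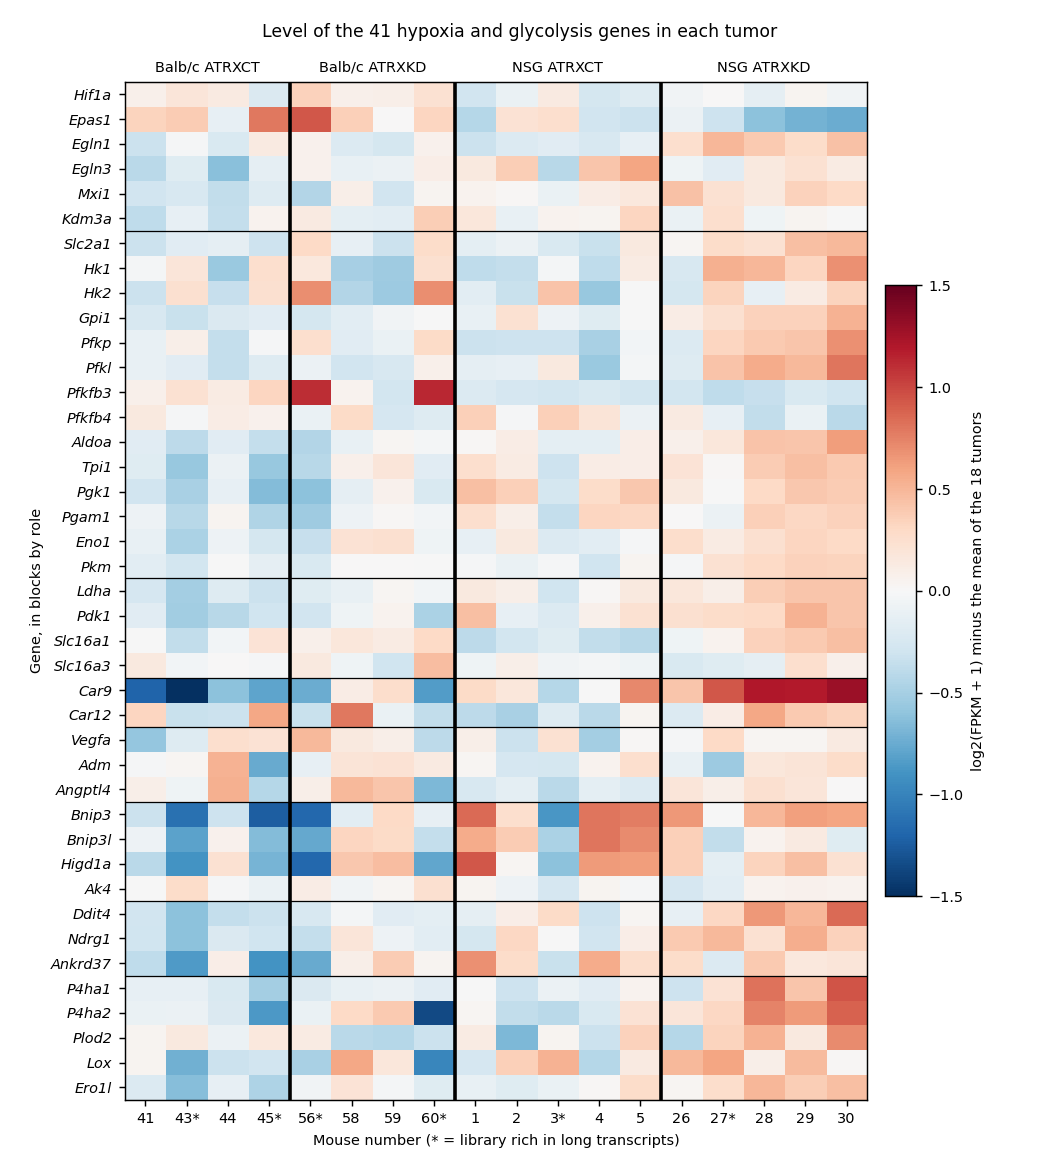
Each row is a gene and each column a tumor, headed by its mouse number, with color for log2(FPKM + 1) minus the gene's mean over the 18 tumors. In the Car9 row the 4 Balb/c control tumors are all blue (8.53 to 22.9 FPKM), and NSG ATRXKD mice 28, 29 and 30 are the deepest red (82.6 to 88.6 FPKM).

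Part of this variation went with the kind of library. In each of the 4 groups, 6 members (Tpi1, Pgk1, Eno1, Bnip3l, Higd1a and Ankrd37) were lower in every library rich in long transcripts than in any other library. Another 5 members (Pgam1, Ldha, Adm, Angptl4 and Bnip3) showed this in 3 of the 4 groups. All 11 but Bnip3l have a longest annotated transcript of 1903 nt or less. Ddit4 (1685 nt) and Aldoa (1588 nt) are as short but did not share the pattern. Ddit4 was lower in 0 groups and higher in 1, and Aldoa was lower in 1. In each NSG group the pattern rested on 1 library, and its share over all genes is not given here. Bnip3 read 97.7 FPKM in NSG control mouse 3 and 214 to 324 FPKM in the other NSG control tumors. Higd1a read 26.1 and 34.6 FPKM in Balb/c ATRXKD mice 56 and 60 and 79.9 and 83.1 FPKM in mice 58 and 59. The opposite held for Hk2, a hexokinase with a transcript of 5513 nt, in all 4 groups, and for Egln1 and Kdm3a in 3. Hk2 read 22.8 FPKM in both such Balb/c control libraries and 14.8 and 15.1 FPKM in the other pair. Because 2 of 4 libraries in each Balb/c group and 1 of 5 in each NSG group were of this kind, the kind was balanced in the comparisons of shRNA within a host and unbalanced in the comparisons of hosts.

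**Figure D2:**
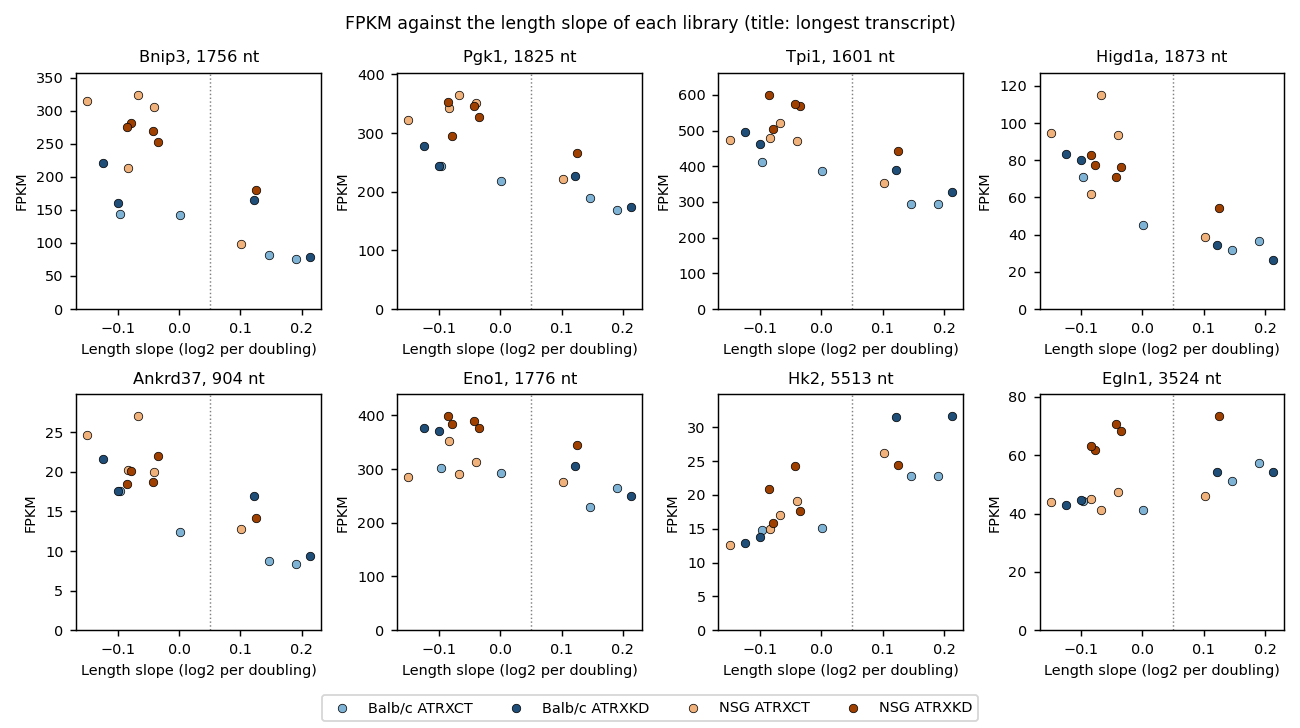
FPKM of 8 members is plotted against the length slope of each library, the change in log2 level per doubling of transcript length, for the 18 tumors colored by group, with a dotted line at 0.05 between the 12 libraries on the left and the 6 rich in long transcripts on the right. Bnip3, Pgk1, Tpi1, Higd1a, Ankrd37 and Eno1 are lower on the right in most groups, and Hk2 is higher there.

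ATRXKD and ATRXCT tumors were first compared within NSG hosts. 7 of the 41 members had an adjusted p below 0.05, and all 7 were higher in ATRXKD tumors: Egln1, Slc2a1, Pfkp, Slc16a1, Car9, Angptl4 and P4ha2. Among all 14654 genes tested, 3.73% were higher and 3.05% were lower by the same rule, and no member was lower. None of the 7 reached a 2-fold difference, which 0.464% of all genes did together with the adjusted p. In all, 32 of 41 members lay above 0, against 49.8% of all genes, with a median difference of 0.27 over the members and −0.0014 over all genes. The members without overlap between the groups were Angptl4, Egln1 and Slc16a1, all higher in ATRXKD tumors, where 4.36% of all genes had no overlap upward and 3.14% downward. At an unadjusted p below 0.05, 19 members were higher and 1, Pfkfb4, was lower. This rule was loose over all genes too. In the limma ranking of all 14654 genes, Pfkfb4, which met the rule, stood at 3041, and Epas1, which did not, stood at 3888. At least 3041 and fewer than 3888 genes therefore met it, and their split by direction is not given here.

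By role, the differences were spread over the pathway. Of the 14 genes of glucose uptake and glycolysis, 12 lay above 0, with a median of 0.32. Both carbonic anhydrases and all 5 genes of collagen maturation and endoplasmic reticulum oxidation lay above 0 (medians 0.69 and 0.35). The 4 mitochondrial genes were split 2 and 2 around a median of −0.04, and the 6 oxygen sensing genes 3 and 3 around 0.02.

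The promoters of the 6 of these 7 genes that the RefSeq promoter table holds are printed because those genes rose in the same comparison. Each line gives the 250 bases before the start of the gene in mm10, 5′ to 3′ on the gene's own strand, with the core of the hypoxia response element, ACGTG or GCGTG on either strand, in capitals. The windows are Egln1 chr8:124949255-124949504, minus strand, and Slc2a1 chr4:119108495-119108744, plus strand. The others are Pfkp chr13:6648772-6649021, minus strand, Slc16a1 chr3:104638414-104638663, plus strand, Car9 chr4:43506776-43507025, plus strand and P4ha2 chr11:54100674-54100923, plus strand.
Egln1: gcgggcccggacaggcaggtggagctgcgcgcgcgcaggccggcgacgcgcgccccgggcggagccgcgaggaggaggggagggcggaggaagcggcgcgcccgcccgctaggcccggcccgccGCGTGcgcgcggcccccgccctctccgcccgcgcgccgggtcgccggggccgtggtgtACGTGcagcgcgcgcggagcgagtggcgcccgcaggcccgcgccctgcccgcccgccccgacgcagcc
Slc2a1: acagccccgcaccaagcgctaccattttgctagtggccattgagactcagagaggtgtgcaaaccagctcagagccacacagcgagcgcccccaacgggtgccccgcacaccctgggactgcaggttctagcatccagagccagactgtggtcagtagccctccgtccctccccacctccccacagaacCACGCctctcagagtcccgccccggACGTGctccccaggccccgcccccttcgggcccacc
Pfkp: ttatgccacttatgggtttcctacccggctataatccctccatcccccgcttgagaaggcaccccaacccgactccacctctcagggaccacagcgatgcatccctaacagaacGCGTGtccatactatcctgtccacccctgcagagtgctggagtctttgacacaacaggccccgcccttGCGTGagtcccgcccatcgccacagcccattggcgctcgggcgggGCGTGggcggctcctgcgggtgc
Slc16a1: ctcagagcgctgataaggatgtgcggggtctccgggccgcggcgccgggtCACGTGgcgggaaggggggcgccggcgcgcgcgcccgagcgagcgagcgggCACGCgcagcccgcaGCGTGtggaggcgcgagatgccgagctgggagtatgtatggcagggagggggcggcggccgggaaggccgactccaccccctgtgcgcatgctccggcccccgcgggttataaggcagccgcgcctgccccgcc
Car9: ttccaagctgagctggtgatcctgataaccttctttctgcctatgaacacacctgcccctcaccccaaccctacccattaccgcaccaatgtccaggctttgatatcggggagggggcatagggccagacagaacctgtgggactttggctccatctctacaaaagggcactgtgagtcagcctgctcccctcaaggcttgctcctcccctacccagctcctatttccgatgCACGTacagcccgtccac
P4ha2: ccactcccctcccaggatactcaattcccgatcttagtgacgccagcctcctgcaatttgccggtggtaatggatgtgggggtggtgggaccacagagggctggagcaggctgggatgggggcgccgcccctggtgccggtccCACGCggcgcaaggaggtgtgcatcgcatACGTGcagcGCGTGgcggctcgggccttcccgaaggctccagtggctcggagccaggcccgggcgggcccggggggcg

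All 6 windows hold the core motif at least once. Among the 34 members with a promoter in the table, each taken at the listed start nearest to the annotated one, 26 (76.5%) hold it, against 38.6% of all 32851 promoters of the same length, and 17 (50%) hold ACGTG itself, against 16.6%. The longer motif CACGTG, which contains ACGTG on both strands and is also the E-box that Myc and its partners bind, was found in 4 of the 34 (11.8%) and in 6.02% of all promoters. In the window of Slc16a1 the first motif is of that kind. The single match of Car9 lies 18 bases before the start, the nearest to its start among the 6. A match is a description of these letters only.

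Egln1 encodes the main oxygen-dependent hydroxylase of the alpha subunits. It measured 41.2, 45.0, 46.0, 43.9 and 47.4 FPKM in NSG control mice 1 to 5 and 61.8, 73.5, 68.3, 63.0 and 70.7 FPKM in ATRXKD mice 26 to 30. Every ATRXKD tumor was above every control tumor. The difference was 0.58 ± 0.08 (SE) on the log2 scale, a 1.5-fold increase (limma, adjusted p = 0.0057), and the adjusted p stayed below 0.05 in every alternative fit and whichever tumor was left out.

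Slc16a1, the monocarboxylate transporter that carries lactate, measured 21.6, 23.5, 25.1, 22.1 and 21.3 FPKM in the NSG control tumors and 27.4, 29.8, 36.6, 38.1 and 39.7 FPKM in the ATRXKD tumors. The groups did not overlap, and mice 26 and 27 were the ATRXKD tumors nearest to the controls. The difference was 0.56 ± 0.11 (SE), 1.48-fold (limma, adjusted p = 0.019), with adjusted p between 0.051 and 0.062 without control mice 1 or 4 or ATRXKD mice 28, 29 or 30.

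Car9 measured 43.9, 40.3, 26.3, 35.5 and 59.3 FPKM in the NSG control tumors and 48.0, 68.9, 83.7, 82.6 and 88.6 FPKM in the ATRXKD tumors. Control mouse 5 lay above ATRXKD mouse 26, and the other 4 ATRXKD tumors lay above every control. The difference was 0.86 ± 0.21 (SE), 1.81-fold and the highest of any member (limma, adjusted p = 0.039), with adjusted p between 0.057 and 0.11 without control mice 1, 2 or 4 or ATRXKD mice 27 to 30. It also was 0.062 without a filter on low values, 0.075 with all 4 groups in 1 fit and 0.051 without the 6 libraries rich in long transcripts. Without ATRXKD mouse 26 the difference was 1.00 and Car9 passed the 2-fold threshold as well.

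P4ha2 measured 8.76, 6.39, 6.21, 7.16 and 10.1 FPKM in the NSG control tumors and 9.87, 10.9, 15.0, 13.9 and 16.7 FPKM in the ATRXKD tumors, a difference of 0.71 ± 0.16 (SE) or 1.63-fold (limma, adjusted p = 0.032). ATRXKD mouse 26 fell just below control mouse 5, and the rest of the groups were apart. Adjusted p was between 0.055 and 0.093 without control mice 1, 2 or 4 or ATRXKD mice 28, 29 or 30, and 0.12 with all 4 groups in 1 fit.

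Pfkp, the platelet-type phosphofructokinase that commits sugar to glycolysis, measured 17.3, 17.4, 17.5, 15.4 and 21.3 FPKM in the NSG control tumors and 18.9, 27.6, 29.2, 29.7 and 36 FPKM in the ATRXKD tumors. Mouse 26 again was the exception among the ATRXKD tumors, lying below control mouse 5. The difference was 0.62 ± 0.15 (SE), 1.54-fold (limma, adjusted p = 0.036), with adjusted p between 0.056 and 0.099 without control mice 1, 2 or 4 or ATRXKD mice 27 to 30, and of 0.052 without a filter on low values or without the 6 libraries rich in long transcripts. Exons of Pfkp overlap those of Pitrm1 on the other strand.

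Slc2a1, the glucose transporter GLUT1, measured 56.2, 58.6, 52.9, 49.2 and 68.8 FPKM in the NSG control tumors and 63.4, 75.9, 72.9, 85.7 and 87.6 FPKM in the ATRXKD tumors. Only mouse 26 among the ATRXKD tumors lay below control mouse 5. The difference was 0.43 ± 0.11 (SE), 1.34-fold (limma, adjusted p = 0.049), with adjusted p between 0.066 and 0.14 without control mice 1, 2 or 4 or ATRXKD mice 27 to 30. The adjusted p of Slc2a1 also was 0.054 with median-ratio scaling, 0.063 without a filter on low values, 0.059 with all 4 groups in 1 fit and 0.066 without the 6 libraries rich in long transcripts.

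Angptl4, a secreted inhibitor of lipoprotein lipase, measured 91.5, 97.6, 81.3, 97.8 and 93.6 FPKM in the NSG control tumors and 123, 116, 128, 123 and 108 FPKM in the ATRXKD tumors, without overlap. The difference was 0.37 ± 0.08 (SE), 1.29-fold (limma, adjusted p = 0.028). Adjusted p was 0.25 with all 4 groups in 1 fit, and between 0.055 and 0.083 without control mice 1, 4 or 5 or ATRXKD mice 28, 29 or 30. The summed level of 8 adipocyte markers, a cell type that also makes Angptl4, was between 69.8 and 81.9 FPKM in the control tumors and between 51.8 and 347 FPKM in the ATRXKD tumors, with all 8 above 0 in the comparison (median 0.85, none with an adjusted p below 0.05) and Lep below 0.1 FPKM in every control tumor. Its part in the result was not tested.

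**Figure D3:**
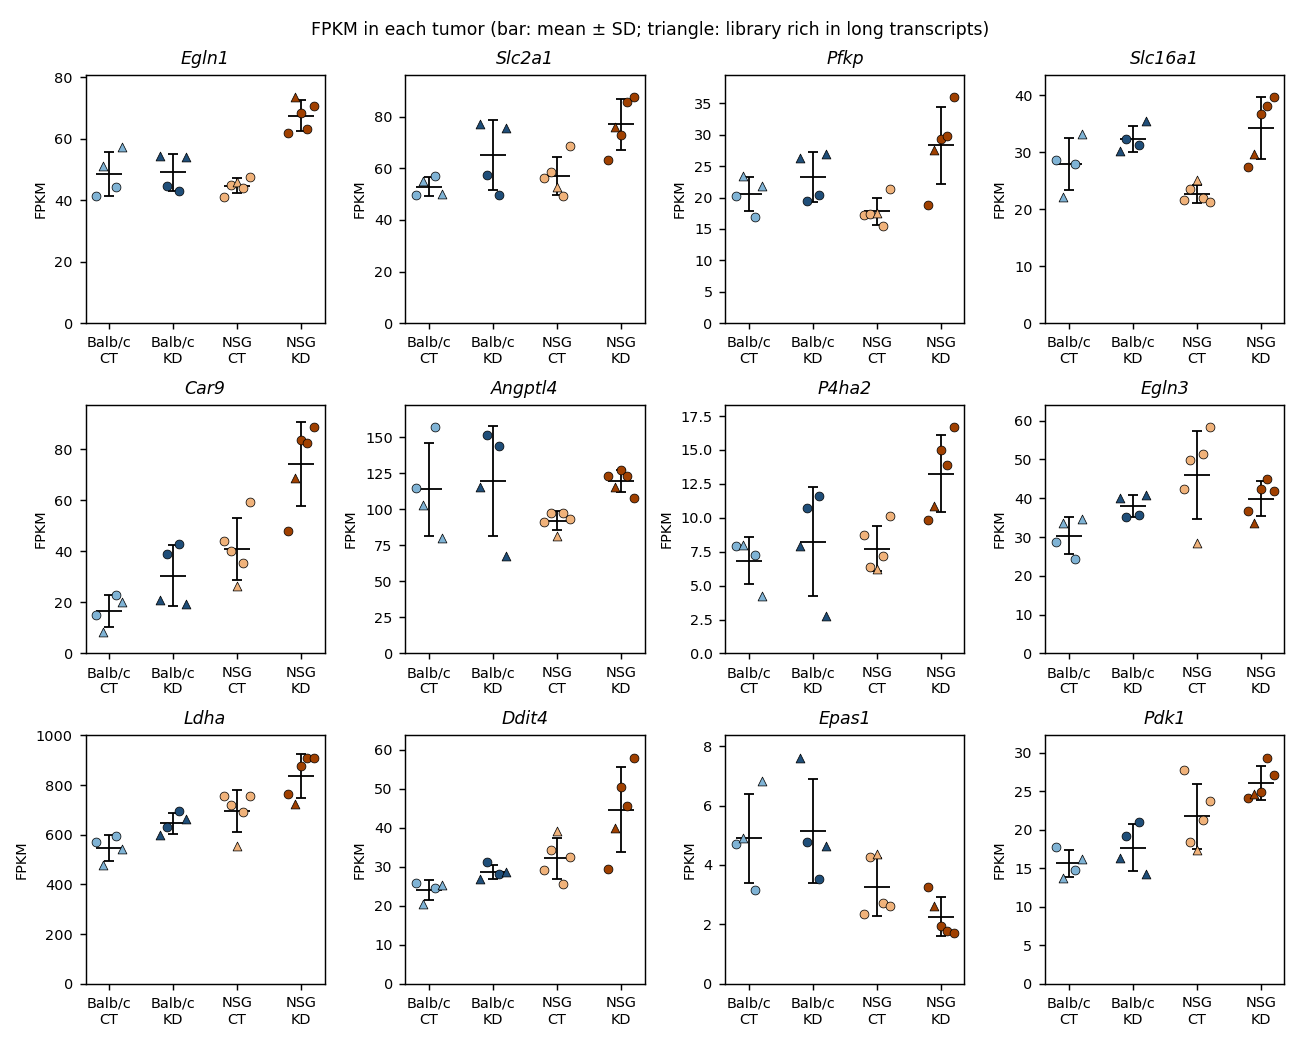
Each panel gives the FPKM of a gene in every tumor (points, triangles for libraries rich in long transcripts) with the mean and SD of each group, for 4 Balb/c control, 4 Balb/c ATRXKD, 5 NSG control and 5 NSG ATRXKD tumors. Egln1 stands at 61.8 to 73.5 FPKM in NSG ATRXKD tumors and at 41.2 to 57.2 FPKM elsewhere, while Car9 is lower in Balb/c than in NSG hosts with either shRNA.

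The count of 7 members rested on single tumors and on the fit. It was 1 without control mice 1 or 4 or ATRXKD mice 28, 29 or 30, 4 without ATRXKD mouse 27, 11 without control mouse 3 and 14 without ATRXKD mouse 26. Counts over all genes without these tumors are not given here, so a general shift of the adjusted p is not set apart. ATRXKD mouse 26 had the lowest value of its group in 22 of the 41 members and control mouse 3 in 18 of 41. With the kind of library (rich in long transcripts or not) as a term in the fit, 17 members had an adjusted p below 0.05, all higher in ATRXKD tumors, and with the length trend removed 9 had, again all higher. Of the 14654 genes tested, 1455 were higher and 1161 lower with that term. With the trend removed 868 were higher and 894 lower, against 547 and 447 in the main fit. Without the 6 libraries rich in long transcripts, 5 members were higher (Egln1, Eno1, Slc16a1, Angptl4 and P4ha2) and 1, the mitophagy receptor Bnip3l, was lower (−0.52). There 1121 of 14619 genes were higher and 733 lower.

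The remaining members had an adjusted p of at least 0.05 in this comparison. Hif1a, the main alpha subunit, measured 58.5, 66.3, 78.1, 59.3 and 62.4 FPKM in the NSG control tumors and 68.9, 71.6, 64.7, 73.3 and 68.9 FPKM in the ATRXKD tumors, a difference of 0.10. Vegfa, the growth factor for blood vessels, measured 24.2, 18, 26.7, 15.6 and 23.0 FPKM against 22.4, 28.1, 23.1, 23.1 and 25.0 FPKM, a difference of 0.19. Ldha measured 756, 721, 554, 691 and 755 FPKM against 765, 723, 877, 911 and 909 FPKM, a difference of 0.27. These groups overlapped for all 3 genes. Others with differences above 0.3 were Hk1 (0.56), Pfkl (0.55), Car12 (0.53), P4ha1 (0.52), Ddit4 (0.44), Ndrg1 (0.43), Aldoa (0.36), Gpi1 (0.35), Plod2 (0.35), Ero1l (0.34), Eno1 (0.32) and Pkm (0.31). Pgk1 and Ak4 differed by less than their standard errors, with 95% intervals from −0.32 to 0.32 and from −0.21 to 0.21. The lowest differences were those of Bnip3l (−0.40), Epas1 (−0.38) and Pfkfb4 (−0.34), a regulator of glycolysis.

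Other genes of the pathway moved in part in the same comparison. Of 30 further hypoxia-induced targets, 3 rose, namely Stc1, a secreted glycoprotein (0.92, adjusted p = 0.0054), Ndufa4l2, a mitochondrial protein induced by HIF (0.80, 0.036), and Tfrc, the transferrin receptor (0.73, 0.0083), and none fell. Of 17 further glycolysis enzymes and isoforms tested, 3 fell, namely Slc16a7 (−0.70), Pfkfb1 (−0.50) and the hexokinase of blood cells Hk3 (−0.46), and none rose. None of 14 further regulators of the HIF pathway had an adjusted p below 0.05.

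Markers of other cell types moved with these differences. All 10 endothelial markers lay above 0 in NSG ATRXKD against control tumors (median 0.66), and Pecam1 (0.93) and Tie1 (0.82) rose; their summed level was between 25.8 and 64.1 FPKM in control and between 52.4 and 80.0 FPKM in ATRXKD tumors. Of 10 macrophage markers 9 lay below 0, and Lyz2 (−0.97), C1qb (−0.74) and C1qc (−0.62) fell, with sums of 3226 to 4395 and of 2061 to 3641 FPKM. All 10 mitosis genes lay above 0 (median 0.37), with Plk1 (0.66), Aurkb (0.47) and Bub1 (0.40) higher and sums of 359 to 488 and of 491 to 575 FPKM. The 4 Y-linked genes summed to 24.2 to 34.3 FPKM in control and to 13.1 to 21.2 FPKM in ATRXKD tumors without overlap, and 3 of them fell. No defining marker of these lists was at 0 in either group. Their part in the differences of the members was not tested.

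The same comparison in Balb/c hosts gave no member with an adjusted p below 0.05 by limma. Over all 14701 genes tested 1 gene passed, which is 0.0068%. At an unadjusted p below 0.05, 3 members were higher in ATRXKD tumors and none was lower, against 4.14% of all genes in either direction. Of the 41 members, 37 lay above 0, against 49.2% of all genes, and their median difference was 0.16, against −0.0032. The exceptions were Plod2 (−0.32), Pfkfb4 (−0.14), Hk1 (−0.12) and Car12 (−0.06). The count above 0 was 32 with tumor weights and 31 without the libraries rich in long transcripts. The 41 members come from the same tumors, so their count is no count of independent results.

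3 members, Egln3, Ldha and Ddit4, had no overlap between the groups, all with higher values in ATRXKD tumors, where 1.25% of all genes had no overlap upward and 1.93% downward. Egln3, a hydroxylase that is itself induced by HIF, measured 28.7, 33.5, 24.4 and 34.7 FPKM in Balb/c control mice 41, 43, 44 and 45 and 40, 35.2, 35.7 and 40.9 FPKM in ATRXKD mice 56, 58, 59 and 60. The difference was 0.32 ± 0.14 (SE), with control mouse 45 just below ATRXKD mouse 58 (limma, adjusted p = 0.999). Ldha measured 571, 476, 596 and 543 FPKM against 599, 631, 696 and 662 FPKM, a difference of 0.25 ± 0.17 (SE). Control mouse 44 and ATRXKD mouse 56 were close. Ddit4, an inhibitor of mTOR signaling induced by stress, measured 25.9, 20.4, 24.6 and 25.2 FPKM against 26.8, 31.1, 28.2 and 28.7 FPKM, a difference of 0.25 ± 0.12 (SE). In NSG hosts Egln3 measured 42.3, 49.7, 28.4, 51.5 and 58.3 FPKM in control and 36.6, 33.7, 42.3, 45.0 and 41.8 FPKM in ATRXKD tumors, with overlap and a difference of −0.17. Ddit4 measured 29.0, 34.3, 39.2, 25.6 and 32.5 FPKM against 29.3, 39.8, 50.4, 45.5 and 58.0 FPKM there, where mouse 26 lay among the controls.

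Car9 had the highest difference in Balb/c hosts too, with 15.0, 8.53, 22.9 and 20.2 FPKM in control and 20.9, 38.8, 42.9 and 19.5 FPKM in ATRXKD tumors. Mice 58 and 59 lay above all controls, and mice 56 and 60, both with libraries rich in long transcripts, lay among them. The difference was 0.84 ± 0.34 (SE), with a 95% interval from 0.06 to 1.61 (limma, adjusted p = 0.999). Ero1l, an oxidase of the endoplasmic reticulum, differed by 0.34 ± 0.15 (SE). The other 6 genes found in NSG hosts measured as follows in Balb/c.

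Egln1 was at 41.3, 51.1, 44.2 and 57.2 FPKM in control and 54.3, 44.7, 43.1 and 54.1 FPKM in ATRXKD tumors, a difference of 0.02 with a 95% interval from −0.30 to 0.34. Slc2a1 was at 49.5, 55.1, 56.9 and 49.9 against 77.1, 57.3, 49.8 and 75.8 FPKM, a difference of 0.27 in which mice 56, 58 and 60 stood above all controls, mouse 58 by less than 1 FPKM. Mice 56 and 60 have the libraries rich in long transcripts. Within that kind the mean log2 level of Slc2a1 was 6.27 in ATRXKD and 5.74 in control tumors, and within the other kind 5.77 and 5.76. Slc16a1 was at 28.7, 22.1, 27.9 and 33.2 against 30.2, 32.4, 31.3 and 35.5 FPKM, a difference of 0.21 in which control mouse 45 lay within the ATRXKD range. Pfkp was at 20.3, 23.3, 16.8 and 21.8 against 26.4, 19.4, 20.4 and 26.9 FPKM, a difference of 0.17. Its mean log2 level was 4.79 against 4.56 in libraries rich in long transcripts and 4.39 against 4.28 in the others. Angptl4 was at 115, 103, 157 and 80.2 against 115, 152, 144 and 67.5 FPKM, a difference of 0.05. P4ha2 was at 7.93, 7.97, 7.24 and 4.27 against 7.93, 10.7, 11.6 and 2.74 FPKM, a difference of 0.13, with mouse 60 the lowest of the 18 tumors. All 6 overlapped between the groups.

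Hif1a was at 75.4, 81.1, 78.3 and 61.2 FPKM in Balb/c control and 91.3, 75.2, 75.8 and 83.7 FPKM in ATRXKD tumors, a difference of 0.14. Vegfa was at 14.9, 19.7, 27.2 and 26.5 against 32.1, 25.2, 24.3 and 17.0 FPKM, a difference of 0.16. Both overlapped. No gene of the 4 further pathway lists had an adjusted p below 0.05 in Balb/c hosts, and 23 of 30 further hypoxia-induced targets lay above 0. The endothelial markers lay above 0 in 10 of 10 (median 0.50, sums of 53.0 to 89.4 against 73.7 to 171 FPKM) and the adipocyte markers in 7 of 7 tested (median 0.64, sums of 80.1 to 93.2 against 124 to 245 FPKM), while all 10 skeletal muscle markers lay below 0 (median −0.72, sums of 8.79 to 62.7 against 1.56 to 41.1 FPKM). None of these markers had an adjusted p below 0.05, none was at 0 in a whole group, and their part in the values above was not tested.

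**Figure D4:**
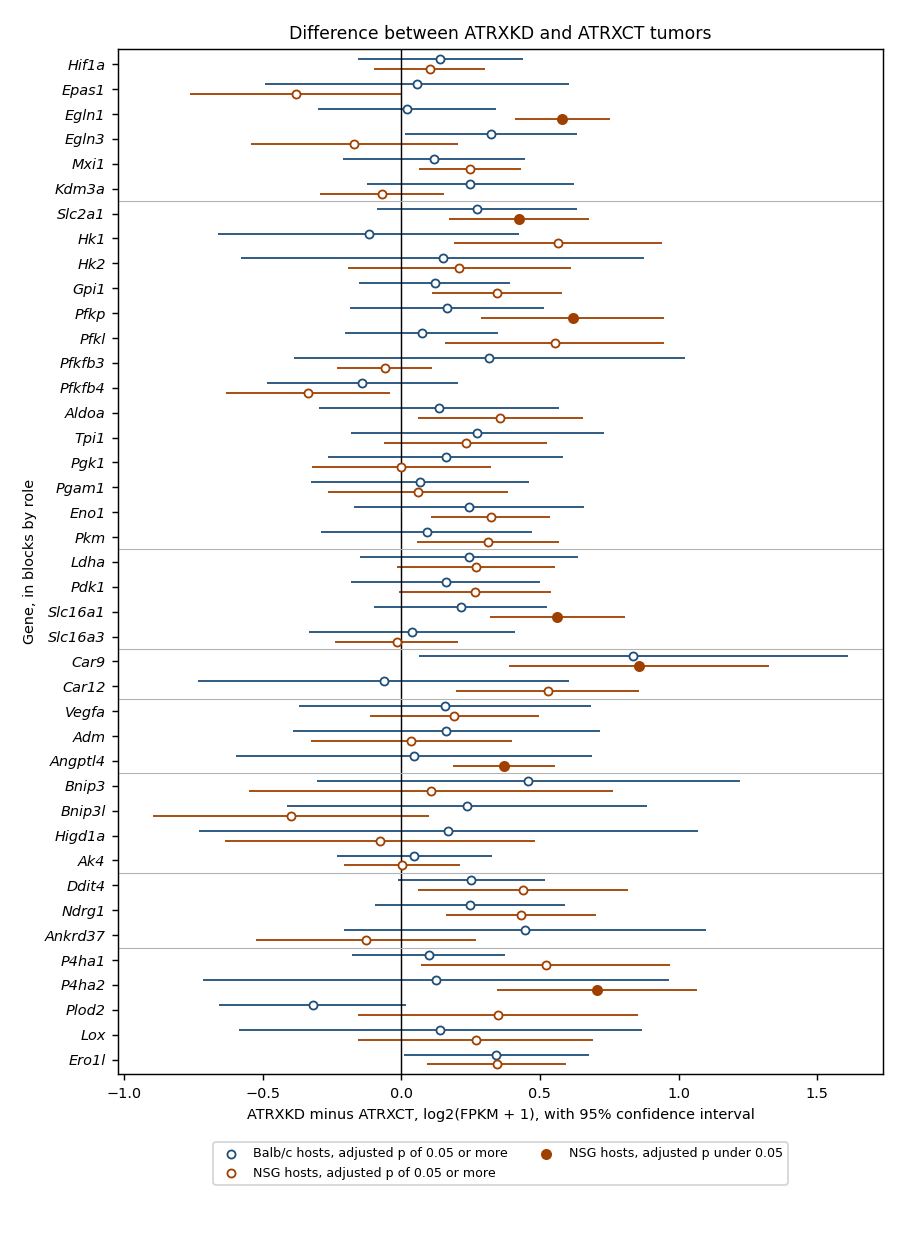
The difference of ATRXKD minus ATRXCT tumors, in log2(FPKM + 1) with its 95% interval, is shown for each member in Balb/c hosts (blue, 4 against 4 tumors) and NSG hosts (brown, 5 against 5). Filled points mark the 7 members with an adjusted p below 0.05, all in NSG hosts, and Car9 is farthest to the right in both hosts (0.84 and 0.86).

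Comparisons within Balb/c and within NSG hosts share no tumors, but both used the same 1 line per shRNA. 29 of the 41 members lay above 0 in both, 1 (Pfkfb4) lay below 0 in both, 8 lay above 0 in Balb/c alone and 3 (Hk1, Car12 and Plod2) in NSG alone. The share of all genes above 0 in both is not given here. The difference between the 2 effects was tested directly with all 18 tumors. No member had an adjusted p below 0.05, nor had any of the 14803 genes tested (0%). At an unadjusted p below 0.05 there were 4 members, against 10.3% of all genes. These were Egln1, whose effect was lower in Balb/c by 0.56 (95% interval 0.25 to 0.87, limma, adjusted p = 0.23), Hk1 (−0.68), Plod2 (−0.67) and Egln3 (0.49). With the kind of library as a term, which was chosen after seeing the data, Egln1 had an adjusted p of 0.039 in limma. In that fit 9 of 14803 genes were higher and 32 lower at an adjusted p below 0.05. For Car9 the 2 effects differed by −0.02 (95% interval −0.90 to 0.86).

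Hosts were compared next, as Balb/c minus NSG, which differ in strain and immune status and, by the Y-linked genes, in sex. In tumors with control shRNA, Car9 was the single member called, at 15.0, 8.53, 22.9 and 20.2 FPKM in Balb/c and 43.9, 40.3, 26.3, 35.5 and 59.3 FPKM in NSG hosts. Every Balb/c tumor lay below every NSG tumor. The difference was −1.29 ± 0.28 (SE), 2.44-fold lower (limma, adjusted p = 0.036), where 1.43% of all 14828 genes were called in either direction, 2.09% were higher and 1.09% were lower at an adjusted p below 0.05. Adjusted p of Car9 was between 0.053 and 0.099 without Balb/c mice 41, 43 or 45 or NSG mice 1, 2, 4 or 5, and 0.068 without a filter on low values. Without NSG mouse 3, 6 members were lower at an adjusted p below 0.05, and without Balb/c mouse 44 there were 3 lower and 1 higher. The shares of all genes above are those of the full fit, and those without these tumors are not given here.

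In tumors with Atrx shRNA, Car9 again was the single member called, at 20.9, 38.8, 42.9 and 19.5 FPKM in Balb/c and 48.0, 68.9, 83.7, 82.6 and 88.6 FPKM in NSG hosts, without overlap. The difference was −1.31 ± 0.26 (SE), 2.47-fold lower (limma, adjusted p = 0.022), where 1.39% of all 14669 genes were called, 2.8% were higher and 0.839% were lower at an adjusted p below 0.05. Adjusted p was between 0.06 and 0.066 without Balb/c mice 56 or 60 or NSG mice 28, 29 or 30, and 0.12 without the libraries rich in long transcripts, with a difference of −0.84. Within those 12 libraries Car9 stayed lower in Balb/c, at 38.8 and 42.9 FPKM against 48.0 to 88.6 FPKM. The 2 host comparisons share no tumors with each other, but each shares its tumors with the comparisons of shRNA.

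3 further members had an adjusted p below 0.05 between hosts in ATRXKD tumors, none with a 2-fold difference. Epas1, the alpha subunit prominent in endothelial cells, measured 7.62, 4.78, 3.54 and 4.65 FPKM in Balb/c and 3.25, 2.63, 1.96, 1.76 and 1.70 FPKM in NSG hosts, higher in Balb/c by 0.90 ± 0.20 (SE) without overlap (limma, adjusted p = 0.039). With control shRNA it measured 4.70, 4.90, 3.16 and 6.83 against 2.36, 4.26, 4.36, 2.71 and 2.62 FPKM, with overlap. All 10 endothelial markers lay above 0 in both host comparisons (medians 0.63 and 0.60), with sums of 53.0 to 171 FPKM in Balb/c and of 25.8 to 80.0 FPKM in NSG tumors, and their part in the level of Epas1 was not tested. Adjusted p of Epas1 was between 0.061 and 0.11 without Balb/c mice 56, 58 or 60 or NSG mice 27 to 30, 0.073 without a filter on low values and 0.13 without the 6 libraries rich in long transcripts.

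Egln1 was lower in Balb/c by 0.46 on the log2 scale in ATRXKD tumors (43.1 to 54.3 against 61.8 to 73.5 FPKM, no overlap, limma, adjusted p = 0.044), with adjusted p between 0.053 and 0.13 without Balb/c mice 58, 59 or 60 or NSG mice 27 to 30, 0.054 with median-ratio scaling and 0.059 at a mean of at least 1 FPKM. In control tumors Egln1 overlapped between hosts (0.10). Pdk1, the kinase that keeps pyruvate out of the citrate cycle, measured 16.3, 19.2, 21 and 14.2 FPKM in Balb/c ATRXKD tumors and 24.1, 24.6, 24.9, 29.4 and 27.2 FPKM in NSG ATRXKD tumors, without overlap. Its difference was −0.54 ± 0.12 (SE) (limma, adjusted p = 0.042), with adjusted p between 0.051 and 0.12 without Balb/c mice 56, 58 or 60 or any one NSG mouse, 0.083 with the length trend removed and 0.11 without the 6 libraries rich in long transcripts. With control shRNA Pdk1 measured 17.8, 13.8, 14.8 and 16.1 against 27.8, 18.5, 17.4, 21.3 and 23.8 FPKM, where NSG mouse 3 lay below Balb/c mouse 41.

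Over all members, 14 lay above 0 in control tumors (51.3% of all genes did), with a median of −0.16, and 9 in ATRXKD tumors (47.1% of all genes), with a median of −0.34. Without overlap in control tumors were Car9, Aldoa and Mxi1, a repressor of Myc targets, all lower in Balb/c, and Pfkfb3, a regulator of glycolysis, higher, against 2.85% of genes downward and 4.72% upward. In ATRXKD tumors 8 members lay lower in Balb/c without overlap (Aldoa, Car9, Egln1, Gpi1, Ldha, Mxi1, Ndrg1 and Pdk1) and 2 higher (Epas1 and Hif1a), against 3.05% and 5.08% of genes. Pfkfb3 read 8.34 to 10.1 FPKM in Balb/c control tumors and 6.29 to 6.69 FPKM in NSG control tumors (0.43, adjusted p = 0.052 by limma), and 18.1 and 18.3 FPKM in Balb/c ATRXKD mice 56 and 60 but 8.16 and 6.31 FPKM in mice 58 and 59.

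Of the members that read low in the libraries rich in long transcripts, Bnip3 differed between hosts by −1.11 in control and −0.76 in ATRXKD tumors, Ankrd37 by −0.80 and −0.22, Higd1a by −0.77 and −0.52, Bnip3l by −0.76 and −0.13, and Pgk1 by −0.64 and −0.48, none with an adjusted p below 0.05 in limma. Such libraries made up 4 of 8 Balb/c and 2 of 10 NSG libraries. Within the other 12 libraries Bnip3 was still lower in Balb/c control tumors (143 and 144 FPKM against 214 to 324) and in Balb/c ATRXKD tumors (161 and 220 FPKM against 253 to 281). Pgk1 was lower there too, at 218 and 244 against 323 to 366 FPKM in control and 243 and 278 against 296 to 353 FPKM in ATRXKD tumors. Bnip3l and Ankrd37 lay lower in Balb/c in control tumors (76.3 and 84.5 against 105 to 142 FPKM, and 12.4 and 17.6 FPKM, both below the lowest NSG control library among these 12), where Higd1a overlapped (45.1 and 70.9 against 61.6 to 115 FPKM). In ATRXKD tumors of these 12 libraries Bnip3l (98.7 and 101 against 71.0 to 104 FPKM), Higd1a (79.9 and 83.1 against 70.8 to 82.6 FPKM) and Ankrd37 (17.6 and 21.7 against 18.5 to 21.99 FPKM) overlapped, and for Bnip3l and Higd1a the mean log2 level was the higher one in Balb/c (6.65 against 6.44 and 6.37 against 6.28).

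**Figure D5:**
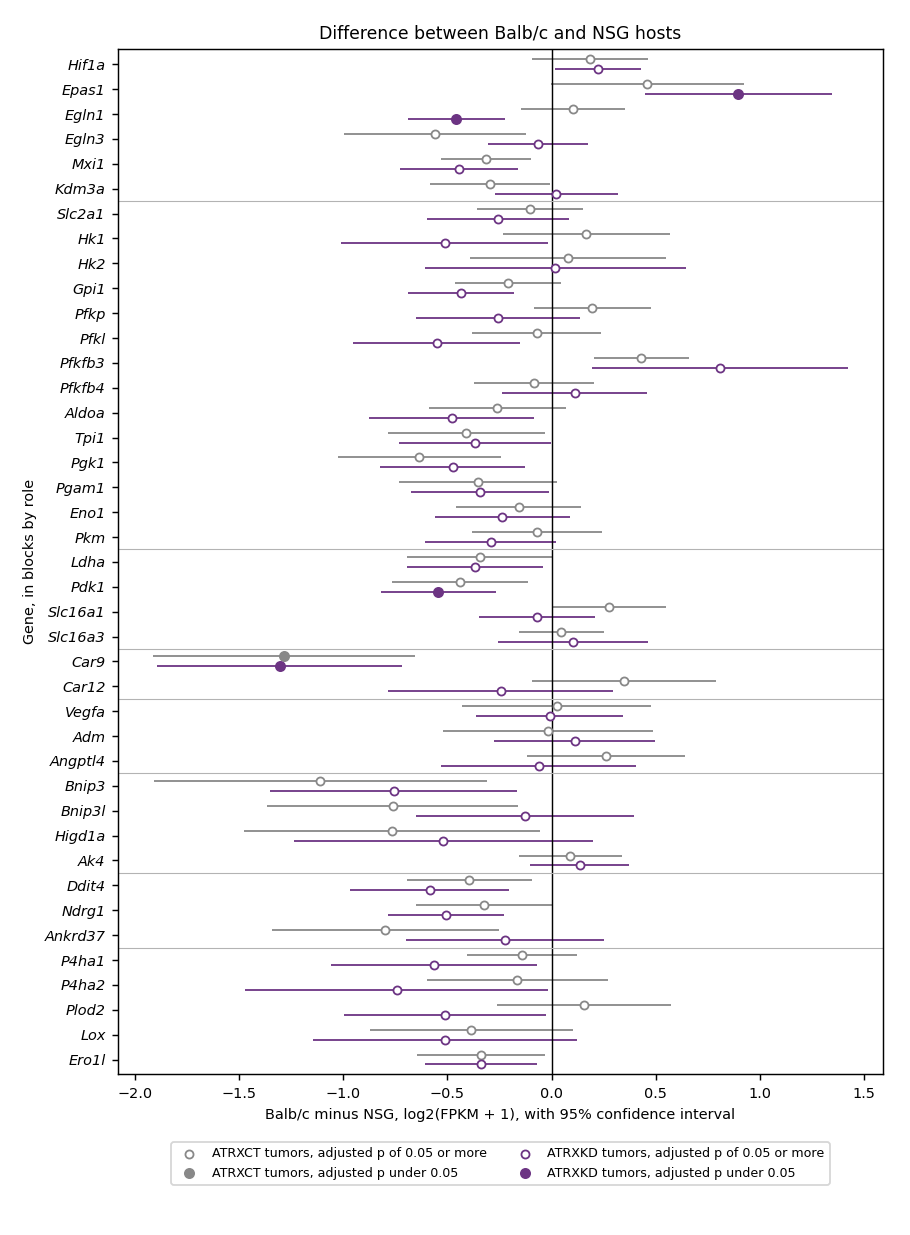
The difference of Balb/c minus NSG hosts, in log2(FPKM + 1) with its 95% interval, is shown for each member in ATRXCT tumors (gray, 4 against 5) and ATRXKD tumors (purple, 4 against 5). Filled points mark an adjusted p below 0.05. Car9 lies at −1.29 and −1.31, and Epas1 is the filled point on the right (0.90).

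Other pathway genes between hosts with an adjusted p below 0.05 were few. In control tumors Ldhb, the heart-type lactate dehydrogenase (1.01), Slc2a3, the glucose transporter of leukocytes and neurons (0.71), and Cox4i2, a cytochrome oxidase isoform (0.74), were higher in Balb/c, and Eno2, the neuronal enolase (−1.03), was lower. In ATRXKD tumors Slc2a3 (0.82), Hk3 (0.75) and Ldhb (0.52) were higher. Markers of T and NK cells moved with these, with 7 of 8 higher in both comparisons and sums of 27.3 to 46.0 FPKM in Balb/c against 1.08 to 6.14 FPKM in NSG tumors, where Cd3g and Ncr1 were at 0 throughout the control tumors and Cd3e throughout the ATRXKD tumors. Skeletal muscle markers, a tissue rich in Aldoa and other glycolytic enzymes, summed to 1.56 to 62.7 FPKM in Balb/c and to 2.2 to 581 FPKM in NSG tumors, and all 10 lay below 0 in the ATRXKD comparison (median −1.12, none with an adjusted p below 0.05). Their part in the members' values was not tested.

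Whether 7 widely used HIF targets (Vegfa, Slc2a1, Pgk1, Ldha, Bnip3, Ndrg1 and Ddit4) vary together from tumor to tumor was tested over their 21 pairs, after subtracting each group's mean. By permutation of tumors within groups (100000 resamples, two-sided, adjusted over the 21 pairs), 3 pairs over the 18 tumors passed, all among Pgk1, Ldha and Bnip3. Their longest transcripts have 1825, 1816 and 1756 nt. Ddit4, with 1685 nt, is shorter still and passed with none of the others. Since the libraries fall into 2 kinds, correlations are given within the 12 libraries not rich in long transcripts, where Pgk1 and Ldha alone passed (Pearson r = 0.95, Spearman rho = 0.94, unadjusted permutation p = 0.00047 and adjusted p = 0.0099 for each, r = 0.93 without the 2 tumors farthest from the median of Pgk1). Within these 12 libraries each Balb/c group holds 2 tumors and each NSG group 4. Few orders within groups exist, so the p of Pgk1 and Ldha is near the lowest that permutation can give. In the same 12 libraries Pgk1 and Bnip3 gave r = 0.27 and Ldha and Bnip3 r = 0.22, with adjusted permutation p of 0.64 and 0.66. The 6 libraries rich in long transcripts left too few tumors per group for a value of their own. With the length trend removed in all 18 tumors, Pgk1 and Bnip3 alone passed (r = 0.86, rho = 0.77, adjusted permutation p = 0.014 for r), and Pgk1 and Ldha gave r = 0.44. Vegfa passed with none of the other 6 in any of these settings. Pgk1 and Bnip3 share 52.8% and 34.4% of their 75-base stretches with other annotated genes, as do Pgam1 (34.9%), Eno1 (23.0%), Higd1a (22%), Pkm (17.8%) and Bnip3l (16.9%). The levels of these genes therefore depend on how reads from such stretches were treated. By its methods, the study removed low-quality reads and PCR duplicates before it quantified genes.

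The members not yet given by value ranged as follows over the 18 tumors, with no adjusted p below 0.05 in any comparison. Among the regulators Mxi1 lay between 14.5 and 27.5 FPKM and Kdm3a, a histone demethylase, between 13.7 and 23.7 FPKM. Among the enzymes of glycolysis Hk1 lay between 34.1 and 81.9, Gpi1 between 138 and 252, Pfkl between 44.3 and 115, Pgam1 between 87.6 and 163, and Pfkfb4 between 3.76 and 7.11 FPKM. Slc16a3, the lactate exporter of glycolytic cells, lay between 17.4 and 30.2 FPKM and Adm, the vasodilator adrenomedullin, between 5.75 and 15.4 FPKM. Ndrg1, a stress-responsive gene, lay between 78.7 and 177 FPKM. Among the collagen genes P4ha1 lay between 39.7 and 111, the lysyl hydroxylase Plod2 between 14.7 and 39.6, and the lysyl oxidase Lox between 89.8 and 270 FPKM, and Ero1l lay between 26.8 and 60.1 FPKM.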

How the data were processed

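The 18 tumor RNAs were prepared as stranded, ribosomal RNA-depleted libraries. Per the labels and the study's methods, reads were aligned to mm10 with STAR 2.6.0c and quantified with Cufflinks 2.2.1 on RefSeq genes, and DESeq was used by the authors for their own comparison. The authors deposited 1 matrix of 20970 rows, 92 of them ERCC spike-ins. Its values are log2(FPKM + 1), since back-transforming with base 2 accounts for 0.983 to 0.995 of the mapped fragments that FPKM is scaled to, and with base e for 7.28 to 9.3 times that total. Whole reads could not be recovered (35.5 to 39.9% of low values within 0.1 of a whole fragment, 20.0% by chance), so no count test was run, and depth is an estimate.

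Here the deposited log2 values were back-transformed to FPKM with spike-ins left out, and limma 3.58.1 (R 4.3.3) was fitted to log2(FPKM + 1) with a mean-variance trend keeping genes that averaged 0.1 FPKM or more over the tumors fitted, separately per pair of groups and over all 18 tumors for the difference between hosts. Groups followed the labels, and no mouse number is shared between groups. A gene was called at an adjusted p (Benjamini-Hochberg, all genes tested) below 0.05 with a fold of at least 2. Length slopes regress each library's log2 level, relative to the mean library, on log2 transcript length, and slopes above 0.05 define the libraries rich in long transcripts. FPKM corrects for annotated length, so any length-dependent loss of fragments would remain in it. Spike-ins made up 1.44 to 1.84% of the 6 libraries rich in long transcripts and 2.19 to 3.04% of the other 12. The origin of the slopes was not tested. Fits were tested on simulated data with differences larger than any member's and no length trend. Power for differences of the members' size was not tested. Members and lists were chosen with earlier results of these data known. Every member is named, with the value in each tumor for those with an adjusted p below 0.05 in any comparison or no overlap between shRNAs in a host, and for Hif1a, Vegfa, Slc2a1, Ldha and Car9. Promoters are from RefSeq (GRCm38.p6, which is mm10), matched by symbol for 34 of 41 members, and 75-base stretches from GENCODE M21 transcripts. Markers of keratinocytes, neutrophils and red blood cells were also listed. In NSG hosts their medians for ATRXKD minus control were 0.11, −0.33 and −0.79, and in Balb/c hosts −0.47, 0.33 and 0.19, none with an adjusted p below 0.05. Between hosts the medians were 0.50, 0.19 and −0.61 with control shRNA and −0.15, 0.44 and 0.05 with Atrx shRNA, where S100a8 (1.53) and S100a9 (1.54) were higher in Balb/c. The list of citrate cycle and respiratory chain genes is not reported here in NSG hosts.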

Additional observations from a re-analysis of the deposited data

Results flagged for a closer look

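Among 164 sets of values (41 members in 4 groups), 8 held a tumor far from the others of its group by Dixon's criterion on log2(FPKM + 1), where chance gives about 8.2. NSG control mouse 3 was lowest for Tpi1 (353 FPKM, others 471 to 520), Pgk1 (222 FPKM, others 323 to 366) and Ldha (554 FPKM, others 691 to 756). Balb/c ATRXKD mouse 56 was lowest for Pgam1 (87.6 FPKM, others 121 to 129) and Pkm (502 FPKM, others 583 to 589). NSG ATRXKD mouse 27 was lowest for Bnip3 (179 FPKM, others 253 to 281), and Balb/c control mouse 45 for P4ha2 (4.27 FPKM, others 7.24 to 7.97). These 7 values come from libraries rich in long transcripts. NSG control mouse 2 was highest for Slc16a3 (23.0 FPKM, others 20.7 to 21.1).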

How the results depend on the processing

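Alternatives were pseudocount 0.1, median-ratio scaling, no filter on low values, a mean of at least 1 FPKM, no fold threshold, all 4 groups in 1 fit, tumor weights with a robust prior, removal of the length trend, and each tumor left out; library kind as a term and leaving out the 6 libraries rich in long transcripts were chosen after seeing the data. None of the 12 member differences with an adjusted p below 0.05 changed sign in any of them, and in Balb/c hosts no member had an adjusted p below 0.05 in any. No paired analysis was possible because the groups share no mouse numbers.

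In NSG hosts the count of members called higher was 0, and 7 with no fold threshold (0 to 1 with a tumor left out). Members higher at an adjusted p below 0.05 numbered 7, and 4 without a filter, 19 with weights and 17 with library kind as a term (1 to 14 with a tumor left out). Over all genes 547 of 14654 were higher by that rule, and 447 of 19812 without a filter, 2950 with weights and 1455 with library kind as a term. Members lower numbered 0, and 2 with weights and 1 without the 6 libraries (0 to 1). Between hosts in control tumors, 1 member was called lower, and 0 without a filter and 3 with weights (0 to 2). At the adjusted p alone the lower count of 1 was 0 without a filter, 2 with all 4 groups or with the length trend removed, 13 with weights, and 4 with library kind as a term or without the 6 libraries (0 to 6). The higher count of 0 was 1 with pseudocount 0.1, with a mean of at least 1 FPKM or with library kind as a term, and 4 with weights (0 to 1). In ATRXKD tumors, members called higher numbered 0, and 1 with pseudocount 0.1 or no fold threshold (0 to 2), and members called lower numbered 1, and 3 with no fold threshold and 0 without the 6 libraries (0 to 1). At the adjusted p alone the higher count of 1 was 0 without a filter or without the 6 libraries and 2 with all 4 groups (0 to 2). The lower count of 3 was 7 with all 4 groups, 15 with weights, 5 with the length trend removed and 1 without the 6 libraries (0 to 5). For the host difference of the effects, weights gave 1 higher and 1 lower member called and 3 and 5 at the adjusted p alone, and library kind as a term gave 1 lower. Weights also raised the counts over all genes. Between hosts, 1316 genes were lower with weights against 162 in control tumors, and 670 against 123 in ATRXKD tumors. For the host difference of the effects, 717 genes were higher and 1268 lower with weights, against 0 and 0. With library kind as a term 9 genes were higher and 32 lower. Of 21 pairs, 3 covaried, and 1 with the length trend removed or without the 6 libraries (3 to 3). Counts over all genes with a tumor left out are not given here, so the ranges in brackets cannot be set against them. The cause of these shifts was not tested.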
